A study of Homo sapiens with 2 samples.

Results

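The chromatin binding of ETV4 was examined at 10 genes of lung branching signals, the receptor tyrosine kinases FGFR1, FGFR2, FGFR3, FGFR4, MET and RET and the ligands FGF10, FGF2, SHH and BMP4. These 10 of 19970 protein-coding RefSeq genes were listed by name for their place upstream or downstream of the PEA3 factors, and not by any measured value. Earlier results of these data were known when they were listed. For each gene, all ETV4 peaks within 20 kb of its span on hg38 were taken, which gave 43 of the 54389 peaks of the list. The peaks came from 1 anti-Flag immunoprecipitate, made from A549-shETV4 cells that had received Flag-ETV4, and were called by the authors against an input without antibody. A549 is an established human lung adenocarcinoma line, its own ETV4 had been reduced by a lentiviral shRNA, and ETV4 came back from a transfected plasmid, so the peaks are those of the tagged protein. The labels give the input as A549 without antibody and do not say whether it had the shRNA and the plasmid too. There was no replicate immunoprecipitate, no group of cells to compare with and therefore no test between conditions. A peak list holds no expression values, so the identity of the cells was not checked here.

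PEA3 factors (ETV1, ETV4 and ETV5) are ETS transcription factors that bind DNA around a GGAA core. In the developing lung, FGF10 from the mesenchyme activates FGFR2 on the epithelial tip, and ETV4 and ETV5 are induced by that signal. SHH from the epithelium acts back on the mesenchyme, and BMP4 is made at the bud tips. In the branching kidney, RET signalling induces ETV4 and ETV5, and MET, the receptor of hepatocyte growth factor, is among the genes tied to these factors there.

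Each of the 10 genes had 1 or more peaks within 20 kb. A gene with such a peak was common in this list, since 86.3% of all protein-coding genes had one. The number of peaks ran from 1 at FGF2 and BMP4 to 9 at RET. FGFR2 and FGFR4 had 7 peaks each, FGFR1 had 5, SHH and MET had 4, FGFR3 had 3 and FGF10 had 2. The summit, the position of the highest signal in a peak, was inside the gene for 27 of the 43 peaks and outside for 16. Fold enrichment, the ratio of the immunoprecipitate to the control level at the summit, had a median of 10.1 over these peaks against 9.63 over all peaks, and ran from 3.20 to 60.7. Among them, 22 had a fold over 10 and 10 had a fold under 5. Each of the 10 genes had a peak with a fold over 10, as did 72.5% of all protein-coding genes. The depth behind a peak is its pileup, the fragments counted over the summit position, and was recovered from the list. The median was 24 fragments at these peaks, with a lowest value of 7 and a highest of 244, so that counting error alone was wide at the weak ones. The control level lay between 1.28 and 4.05 fragments, and at 16 of the 43 peaks it was at the lowest value of the whole list, as it was for 29.0% of all peaks.

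**Figure D1:**
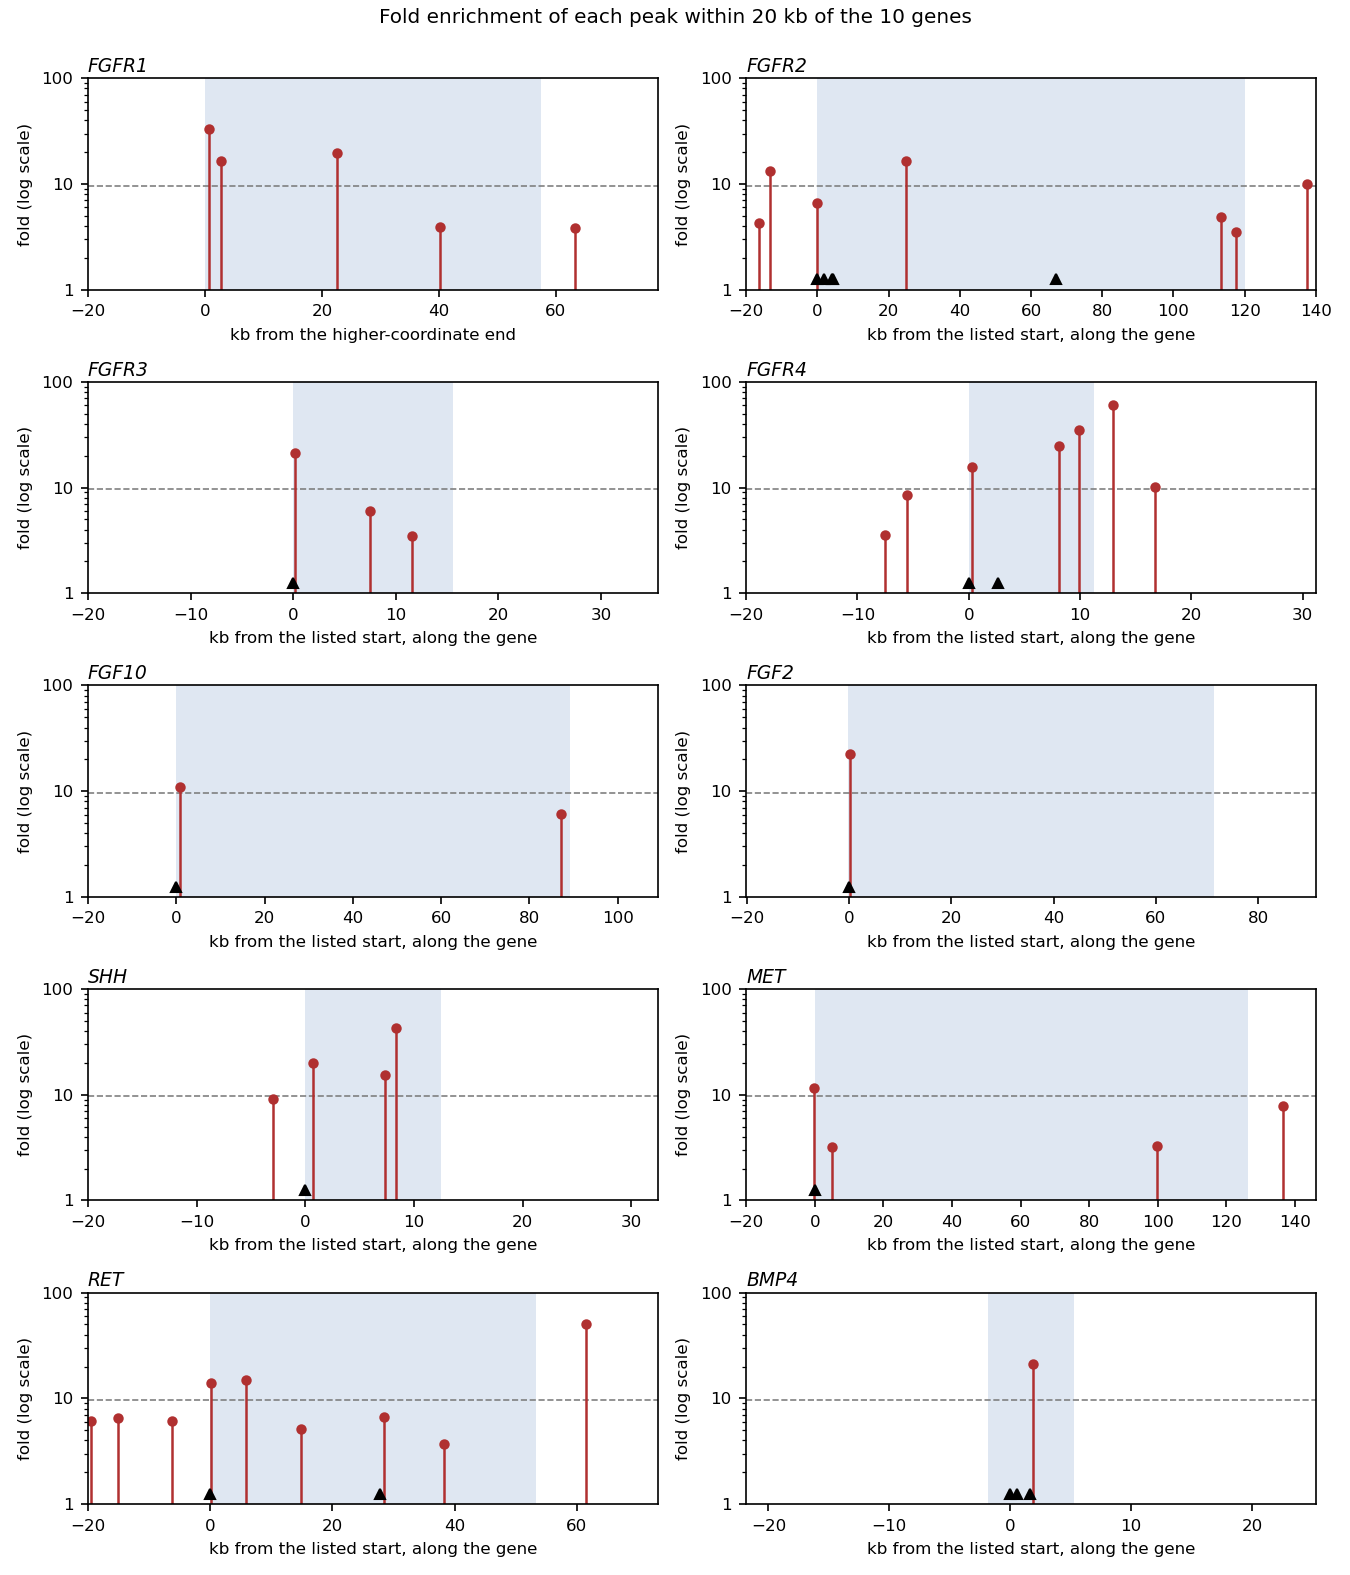
Fold enrichment (log scale) of each of the 43 peaks against the distance of its summit in kb, measured along the gene from its outermost listed start (for FGFR1, from its higher-coordinate end). Shaded areas are gene spans, triangles are listed starts, the dashed line is the median fold of all peaks (9.63), and each panel extends 20 kb beyond the gene. Most genes have a peak at a start, and the highest points of FGFR2, FGFR4, SHH and RET lie away from it.

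A peak within 1 kb of a listed start was present at 9 of the 9 genes whose starts RefSeq's promoter table gives, against 64.5% of the 15812 protein-coding genes with a listed start. FGFR1 was not matched in that table. With either end of the gene taken in place of the start, a peak within 1 kb was found for 9 of the 10, against 62.3% of all protein-coding genes. The exception, BMP4, had its peak over 2 inner starts and not at an end. A fold over 10 at a start was found for 8 of the 9 genes, against 47.1% of genes. The exception was FGFR2. None of the 9 start peaks reached the 90th percentile of fold over all peaks, 38.5, whereas 15.6% of the 10200 genes with a start peak did. The start peaks therefore lay in the middle of the range, with a lowest fold of 6.57, a median of 15.8 and a highest of 22.3, against a median of 17.8 over all genes with a start peak.

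Among the start peaks, those of MET and FGFR2 had their summits directly in the stretch before the start. The MET peak, on chromosome 7 from 116671730 to 116672959, had its summit 97 bp upstream of the start, with a fold of 11.6 and a −log10 q of 34.7. The FGFR2 peak, on chromosome 10 from 121598423 to 121598704, had its summit 109 bp upstream of the outermost listed start, with a fold of 6.57 and a −log10 q of 8.79. These stretches are printed below together with those of FGFR3 and FGF2, whose start peaks had higher folds, 21.5 and 22.3, but summits inside the gene. All are GRCh38.p14 bases from RefSeq, written 5′ to 3′ on the strand of the gene, up to the last base outside the gene's span, with each GGAA (or TTCC, its reverse complement) in capitals. All 4 stretches lay wholly within the start peak of their gene.
MET, plus strand, chr7:116671946-116672195: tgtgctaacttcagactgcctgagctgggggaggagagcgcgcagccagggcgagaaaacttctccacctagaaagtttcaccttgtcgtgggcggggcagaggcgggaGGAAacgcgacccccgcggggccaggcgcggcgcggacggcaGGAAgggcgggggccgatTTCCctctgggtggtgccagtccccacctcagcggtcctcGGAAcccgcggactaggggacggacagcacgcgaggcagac
FGFR2, minus strand, chr10:121598459-121598694: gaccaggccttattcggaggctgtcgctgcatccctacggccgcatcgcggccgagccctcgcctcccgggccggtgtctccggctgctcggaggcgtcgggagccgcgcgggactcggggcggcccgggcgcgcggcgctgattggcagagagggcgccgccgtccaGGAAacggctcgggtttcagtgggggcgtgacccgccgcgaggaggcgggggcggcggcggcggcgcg
FGFR3, plus strand, chr4:1793043-1793292: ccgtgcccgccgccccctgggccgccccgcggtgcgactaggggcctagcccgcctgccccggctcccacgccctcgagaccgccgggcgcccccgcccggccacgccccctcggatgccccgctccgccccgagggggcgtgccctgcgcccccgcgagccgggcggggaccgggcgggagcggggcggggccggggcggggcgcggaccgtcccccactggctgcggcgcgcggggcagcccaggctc
FGF2, plus strand, chr4:122826581-122826681: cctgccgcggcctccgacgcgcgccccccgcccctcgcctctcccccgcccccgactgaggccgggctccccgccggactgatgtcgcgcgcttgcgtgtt

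The MET stretch held the GGAA core 4 times, and the summit, at base 154 of the stretch, fell inside a core that is part of the longer word AGGAAG. The FGFR2 stretch held 1 core, 28 bp from the summit. The FGFR3 and FGF2 stretches held none. The letters were then counted on both strands in the whole promoter windows, which run from 250 bases before to 50 bases after each start. GGAA was present in 15 of the 17 windows of the 9 genes, and the exceptions were those of FGFR3 and FGF2, while 95.5% of all 35116 windows of this length hold it. AGGAAG, which contains GGAA, was found in 5 of the 17 windows, 1 each of FGFR2, FGFR4, FGF10, MET and BMP4, and 33.6% of all windows hold it. Of these windows, those of MET and BMP4 overlapped a peak, and those of FGFR2, FGFR4 and FGF10 did not. The share with AGGAAG was 33.6% over all windows that overlap a peak, 41.1% over those that hold a summit and 33.7% over those without a peak. CGGAAG, which contains GGAA too, was in none of these 17 windows, and 19.5% of all windows hold it. Of the 17 windows, 9 overlapped a peak and 2 held a summit, and the share with CGGAAG was 33.7% over all windows that overlap a peak, 49.7% over the 5023 that hold a summit and 9.17% over those without a peak. TGANTCA, the word of AP-1 factors, was likewise in none of them, and 7.71% of all windows hold it. The inner parts of the peaks and the peaks away from starts were not searched, since no genome sequence was used here.

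FGFR1, FGFR2, FGFR3 and FGFR4 encode the signalling receptors of fibroblast growth factors, and their peaks differed in place as well as in height. At FGFR1, on chromosome 8 from 38411143 to 38468635, the strongest peak, from 38466643 to 38468892, covered the higher-coordinate end of the gene. It was 2250 bp wide, at percentile 98.3 of width, with a fold of 33.1, a −log10 q of 173 and 144 fragments at the summit (95% interval by the exact Poisson method, 121 to 170). A second peak followed 2.80 kb inside that end with a fold of 16.3, and another, 22.5 kb inside it, had a fold of 19.6 and 78 fragments at the summit. The remaining pair was weak, with folds of 3.91 inside the gene and 3.82 in the neighbouring gene LETM2. At FGFR1, 2 of the 3 peaks with a fold over 10 were thus within 3 kb of 1 end, and the other was in the gene body.

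FGFR2, the receptor of FGF10 on the lung epithelium, spans 120.1 kb on chromosome 10 and had no peak with a fold over 16.6. That strongest peak, from 121573268 to 121573865, was inside the gene 20.4 kb downstream of the nearest of its 5 listed starts, with 37 fragments at the summit (26.1 to 51.0). The start peak printed above had 14 fragments at the summit (7.65 to 23.5). These intervals narrowly did not overlap, at control levels of 1.29 and 1.28. The intragenic peak had been picked as the highest by fold, which the intervals do not allow for. A pair of peaks lay 13.4 and 16.5 kb upstream, with folds of 13.2 and 4.26, and 1 peak lay 17.4 kb beyond the other end with a fold of 10.1. The last pair, near the 3′ end, had folds of 4.82 and 3.50 and pileups of 10 and 7 fragments. Between these and the strongest peak, 87.9 kb of the gene held no peak.

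FGFR3, on chromosome 4, had its strongest peak at the start. It ran from 1792956 to 1795304, a width of 2349 bp that was the highest among the 43 peaks, with a fold of 21.5, a summit 190 bp inside the gene and 48 fragments at the summit (35.4 to 63.6). The other FGFR3 peaks, 7.51 and 11.6 kb into the gene, fell off to folds of 5.96 and 3.50.

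FGFR4, on chromosome 5 from 177086915 to 177098144, showed the reverse order. Its start peak, from 177086895 to 177087491, had a fold of 15.8 and 39 fragments at the summit (27.7 to 53.3). Inside the gene the fold was 24.8 at 8.09 kb and 34.8 at 9.92 kb from the outermost start. The strongest peak of all 43, from 177099497 to 177100320, lay 1.74 kb beyond the 3′ end of FGFR4, with a fold of 60.7, a −log10 q of 359 and 244 fragments at the summit (214 to 277). It was at percentile 96.1 of fold over all peaks. The nearest end of any other RefSeq gene, ZNF346, was 18.7 kb from this summit. A peak 5.54 kb beyond the 3′ end had a fold of 10.2. Of the pair upstream, with folds of 3.56 and 8.59, the former was inside ZNF346, and the latter was 140 bp from an end of that gene. The FGFR4 peaks therefore rose in fold along the gene up to the region just past its 3′ end.

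MET had its strongest peak at the start, at percentile 32.9 of fold among genes with a start peak, and weaker ones elsewhere. It spans 126.2 kb on chromosome 7, and the start peak had 45 fragments at the summit (32.8 to 60.2) at a control level of 2.96. The peaks inside the gene, 5.08 and 99.7 kb from the start, had folds of 3.20 and 3.28, at percentiles 1.16 and 1.48 of all peaks. The last peak, 10.4 kb beyond the 3′ end, had a fold of 7.81. The start and the 5.08 kb peak lie also within COMETT, a lncRNA gene that overlaps the first part of MET. The longest stretch without a peak was 94.1 kb.

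RET, the receptor of the glial cell line-derived neurotrophic factor family, had the most peaks but mostly weak ones. The peak at its outermost start on chromosome 10, from 43076106 to 43077901, had a fold of 14.0, a summit 120 bp inside the gene and 31 fragments at the summit (21.1 to 44.0). A second peak 5.79 kb into the gene had a fold of 14.9 and 34 fragments at the summit (23.5 to 47.5), so the pair did not differ beyond counting error. Upstream, 3 peaks between 6.32 and 19.4 kb from the gene had folds of 6.13, 6.57 and 6.13, all at the lowest control level. Further inside the gene, 3 more had folds of 5.10, 6.70 and 3.72, of which the peak with a fold of 6.70 was 811 bp downstream of the second listed start. The highest fold in the RET window, 50.2, belonged to a peak from 43137977 to 43139064 that was 8.22 kb beyond RET, and its summit was inside CSGALNACT2, 122 bp from an end of that gene and in the promoter window of its divergent lncRNA gene CSGALNACT2-DT. Without that peak the highest fold near RET was 14.9.

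Of the ligand genes, FGF10 and FGF2 had few peaks and BMP4 had 1. FGF10, the main branching signal of the lung mesenchyme, spans 89.2 kb on chromosome 5 with a peak near each end. The peak near its start, from 44388298 to 44389000, had a fold of 10.9 and 24 fragments at the summit (15.4 to 35.7). The summit, 761 bp downstream of the start, was 73 bp from an end of the lncRNA gene FGF10-AS1, and the peak did not reach the start itself, 420 bp away. The other FGF10 peak, 2.09 kb from the 3′ end, had a fold of 6.13 and 13 fragments at the summit. The highest fold of any gene of this group was the lowest here, at FGF10.

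FGF2, a ligand that most FGF receptors bind, had a single peak, on chromosome 4 from 122826530 to 122827840. It covered the start, with a fold of 22.3, a summit 243 bp downstream of it and 50 fragments at the summit (37.1 to 65.9). This was the highest fold among the start peaks, and the next 90.4 kb, to the end of the window, held no peak. BMP4 had its single peak on chromosome 14, from 53952872 to 53954774, with a fold of 21.2 and 56 fragments at the summit (42.3 to 72.7). The peak was 1903 bp wide, covered 2 of the 3 listed starts, at 53954488 and 53953395, and had its summit 216 bp downstream of the latter. FGF2 and BMP4 were alike in having 1 wide peak at the start and nothing else within 20 kb.

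SHH, the hedgehog ligand of the lung epithelium, had 4 peaks on chromosome 7 and the highest fold among the ligands. Its strongest peak, from 155803642 to 155804456, was inside the gene, 8.36 kb downstream of the start and 4.13 kb from the 3′ end. It had a fold of 42.8, a −log10 q of 228 and 172 fragments at the summit (147 to 200), at percentile 91.7 of fold. Close by, a peak from 155804866 to 155805761 had a fold of 15.3 and 34 fragments at the summit. The start peak, from 155811476 to 155812414, had a fold of 20.1 and 45 fragments at the summit (32.8 to 60.2). It ended 49 bp inside the gene, with its summit 674 bp downstream of the start, so the stretch before the SHH start was outside the peak. The remaining peak, 2.96 kb upstream, had a fold of 9.20. At SHH, the intragenic peak was higher than the start peak beyond counting error.

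Ordered by the strongest peak in the window, the genes ran from FGFR4 (60.7) through RET (50.2), SHH (42.8), FGFR1 (33.1), FGF2 (22.3), FGFR3 (21.5), BMP4 (21.2), FGFR2 (16.6) and MET (11.6) to FGF10 (10.9), in fold. When the Poisson interval of each pileup was carried over to the fold at a fixed control level, every pair of neighbours in this order overlapped. The fold interval of FGFR4, 53.3 to 68.8, was apart from that of SHH, 36.7 to 49.7, and the interval of FGFR1, 28.0 to 39.0, was apart from those of FGFR2, 11.8 to 22.7, and MET, 8.55 to 15.5. These intervals cover the counting of fragments in 1 library and not the variation between cultures. Among the 43 peaks, 7 shared both fold and −log10 p exactly with another peak of the group, such as the FGF10 peak near the 3′ end and 2 of the upstream RET peaks, since at the lowest control level each pileup gives 1 value only.

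**Figure D2:**
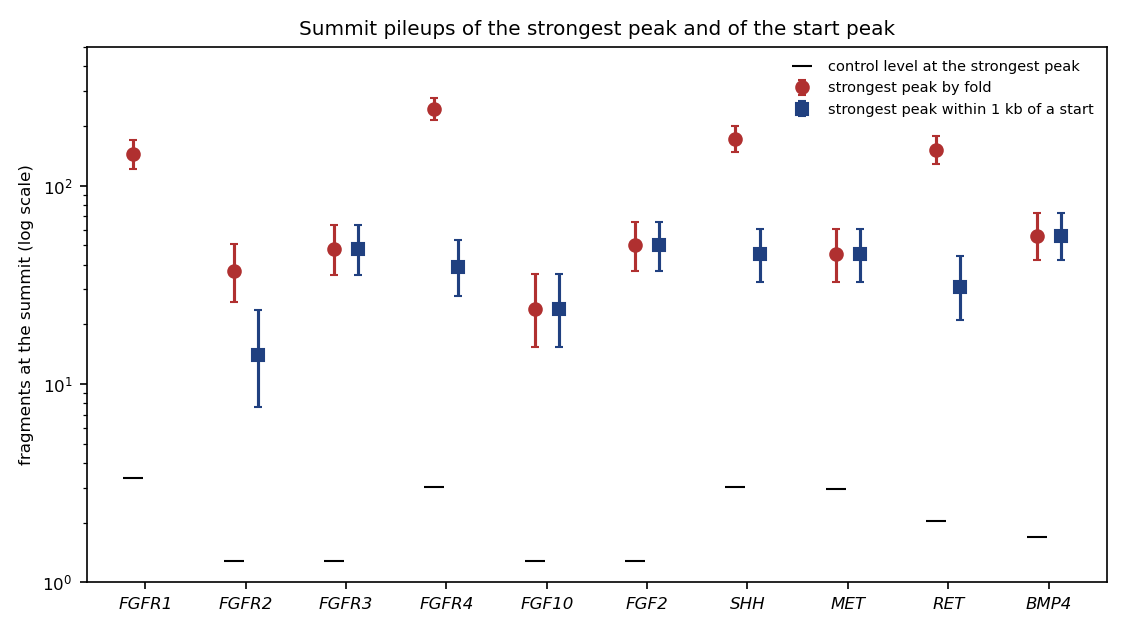
Fragments at the summit (log scale) for the peak with the highest fold near each gene (circles) and for the strongest peak within 1 kb of a listed start (squares), with exact Poisson 95% intervals of counting error, and the control level at the strongest peak (dashes). Both symbols show the same peak at FGFR3, FGF10, FGF2, MET and BMP4, while at FGFR2, FGFR4, SHH and RET the strongest peak is another one and its interval lies above that of the start peak.

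Set beside all genes, the 10 genes had strong peaks about as often as the background share. A peak at or over the 90th percentile of fold within 20 kb was present for 3 of the 10 genes (FGFR4, SHH and RET), against 24.7% of all protein-coding genes, and the one at RET was at CSGALNACT2. Among the 9 genes with a start peak, the strongest peak in the window was another peak for 4 (FGFR2, FGFR4, SHH and RET), against 44.0% of genes with a start peak. The median of the highest fold was 21.9 over the 10 genes and 25.2 over all genes with a peak. The number of peaks had a median of 4 over the 10 genes and of 2 over all protein-coding genes. Because long genes offer more room, the count was also taken per 100 kb of span and flanks, where the median was 4.75 for these genes and 2.90 for all. By this density FGFR4, with 13.7 peaks per 100 kb, was at percentile 96.8 of protein-coding genes, RET, with 9.65, at percentile 90.1, and SHH, with 7.62, at percentile 83.7. FGF2 was at percentile 18.8 with 0.896 peaks per 100 kb, and FGF10 at percentile 28.4 with 1.55. The windows of RET and FGFR4 were thus dense in peaks and those of FGF2 and FGF10 sparse, with no count from a second library to set these against. The counts include peaks nearer to another gene, namely CSGALNACT2 at RET and ZNF346 at FGFR4.

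**Figure D3:**
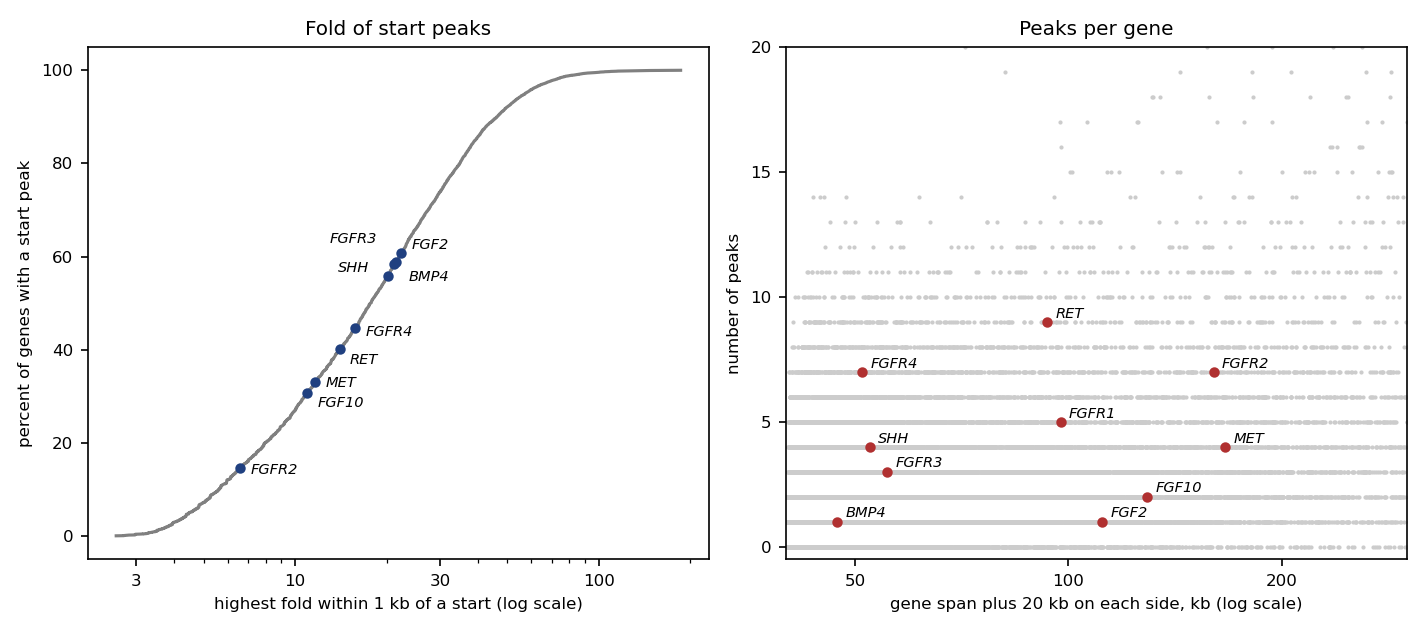
Left, the cumulative share of genes (percent of the 10200 genes with a start peak) by the highest fold within 1 kb of a start, on a log scale, with the 9 genes as points between 6.57 and 22.3. Right, the number of peaks against the length of the gene span plus 20 kb on each side (kb, log scale) for protein-coding genes (grey, those beyond the axes not drawn) and the 10 genes (red), with RET at 9 peaks and FGF2 and BMP4 at 1.

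The partners of these genes were taken from 5 lists of 73 genes in all, of which 54 had a listed start. The lists were written with earlier results of these data known. A peak within 1 kb of a start was present for 34 of the 54 (63.0%, Wilson 95% confidence interval 49.6% to 74.6%), close to the 64.5% of all genes. Peaks were counted by their interval, so a summit, where the fold is read, could lie further off. By summit, 28 of the 54 had a peak within 1 kb. The median folds of the partners of FGF receptors, the partners of MET and RET and the BMP list include peaks with a summit beyond 1 kb. Of the other FGF ligands, 3 of 9 had a start peak, namely FGF5 with a fold of 22.4, FGF18 with 21.1 and FGF3 with 12.3. The summit of the FGF3 peak was 1461 bp downstream of the start. Of the partners of FGF receptors, 7 of 10 had one, with a median fold of 30.8, against 17.8 over all genes with a start peak. The highest at a listed start were at GRB2, an adaptor that links receptors to RAS activation, with a fold of 54.9 and 233 fragments at the summit (204 to 265), at SHC1, another adaptor, with 40.3, and at FRS3, a docking protein of FGF receptors, with 33.1. The summit of the FRS3 peak was 1604 bp upstream of the start. The GRB2 start peak was higher than any start peak of the receptors themselves with a listed start.

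Of the genes listed as partners of MET and RET, 4 of 12 had a start peak, all of them with modest folds and a median of 8.58. The highest at a listed start was at GDNF, a RET ligand, with 14.9, followed by NRTN, another RET ligand, with 10.1, and MST1, the ligand of a MET-related receptor, with 7.01. In the hedgehog list, 10 of 12 genes had a start peak, with a median fold of 21.5. Of these, 3 were above the 90th percentile of fold, which 15.6% of all genes with a start peak reached. The 3 were DISP1, needed for hedgehog release, with 51.7, PTCH1, the hedgehog receptor, with 40.8, and GAS1, a co-receptor, with 39.0. In the BMP list, 10 of 11 had a start peak, with a median fold of 33.6, against 17.8 over all genes with a start peak. The strongest at a listed start were at CHRD, a BMP antagonist, with 53.9, at the receptors ACVR1 with 48.8 and BMPR2 with 47.0, and at ID1, a BMP target, with 45.1. These values cover genes with a listed start only. For the 19 genes without one, peaks within 1 kb of either end of the gene were read instead, and the genes given were picked with their values in view. The highest fold was 85.4 at NOG, another BMP antagonist, followed by 46.6 at PTPN11, a phosphatase in receptor signalling, 40.7 at GAB1, an adaptor, and 38.3 at CBL, a ubiquitin ligase of receptors. The Wilson intervals of the start peaks held the 64.5% of all genes in every list but that of the partners of MET and RET (13.8% to 60.9%). With 9 to 12 genes a list and no test, no difference between the lists is drawn from these shares or medians.

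**Figure D4:**
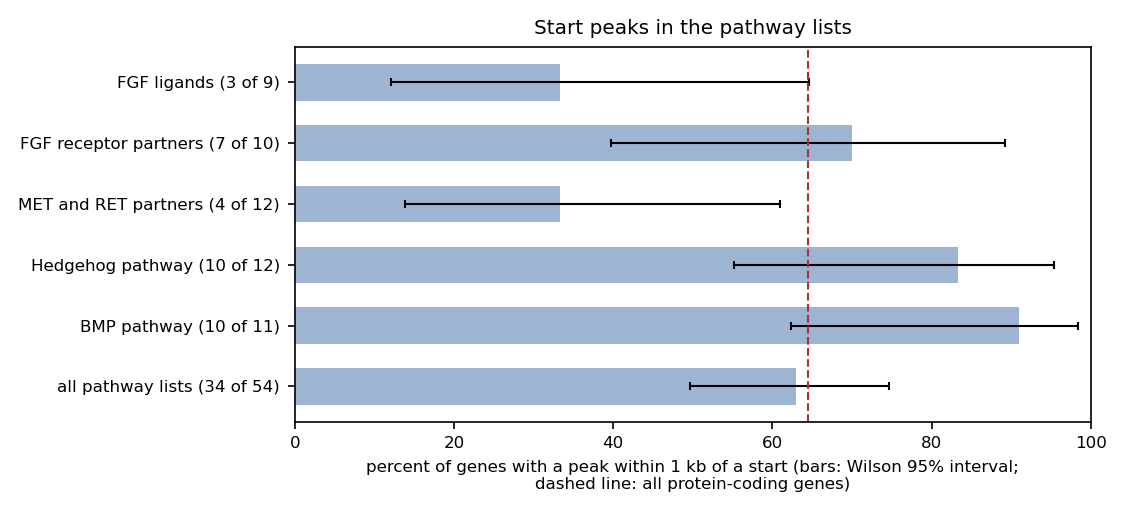
Percent of genes with a peak within 1 kb of a listed start in each pathway list (bars, with Wilson 95% intervals; numbers of genes in brackets) beside the 64.5% of all protein-coding genes with a listed start (dashed line). The lists of FGF ligands and of MET and RET partners are at 33.3% and the BMP list is at 90.9%.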

How the data were processed

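ChIP-seq was done on 1 anti-Flag immunoprecipitate and 1 input library, and the authors deposited the peaks of the former. The submitters' processing notes name Bowtie2 2.4.1, SAMtools, MACS2 2.2.7.1, deepTools 3.5.0 and the build hg38. The paper gives a fold over 2 as the threshold of this list, and the other settings of the peak calling and the handling of duplicates are not given in the sources used here. The paper's methods give a CST Flag antibody and the labels one from Sigma. The values the authors deposited for each peak are a ratio (fold enrichment against the control), a −log10 p-value, a −log10 q-value and a display score, which was left out. The lowest −log10 q was 1.30.

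Distances were measured from peak intervals to RefSeq genes of GRCh38.p14 on chromosomes 1 to 22 and X, and positions are 1-based. Starts and their sequences came from the RefSeq promoter table, which matched 9 of the 10 genes. Pileup and control level were solved from fold and −log10 p by a Poisson upper tail, with 1 added to both sides of the ratio. All pileups lay within 0.00914 of a whole number, and 100% of 5000 simulated peaks were recovered. Intervals are exact Poisson for pileups and Wilson for shares, and cover counting error only. A percentile is the share of values below, with ties counted as 50%. The text names the 10 genes, genes with an end within 1 kb of a summit or holding it, and from each pathway list the 3 genes with the highest fold at a start and all above the 90th percentile. For FGFR1, either end of the gene was used. The genes and lists were chosen with earlier results of these data known. The software was scipy 1.17.1, numpy 2.4.6 and pandas 2.3.3 under Python 3.11.15, with figures by matplotlib 3.10.9.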

Additional observations from a re-analysis of the deposited data

How the results depend on the processing

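No paired analysis was possible because there was 1 immunoprecipitate and no result came from a test. The counts were recomputed with windows of 5 and 50 kb around the genes, of 500 bp and 3 kb around the starts, with fold over 5, fold over 10 or −log10 q over 5, with summits in place of intervals, with either gene end, with peaks nearest to the gene only, and with the longer ETS words. Of 28 such values, 27 stayed within 1.5 times the reported count. The exception was the number of peaks near the 10 genes, which was 22 with a fold over 10 in place of 43. Under each setting of window, threshold or summit, all 10 genes had a peak. Counts already at 10 of 10 or 9 of 9 genes could not rise with a wider window. The pathway genes with a start peak were 28 of 54 by summit and 39 of 54 within 3 kb, in place of 34. The number of peaks was 31 within 5 kb and 55 within 50 kb, and 39 when the 4 peaks nearer to LETM2, ZNF346 or CSGALNACT2 were left out. The highest fold moved beyond its counting interval in 3 of 30 values, to 41.4 at FGFR1 and 34.2 at FGFR2 within 50 kb, and to 14.9 at RET within 5 kb. Depth limits the weak peaks most, since a pileup of 7 fragments has an interval of 2.81 to 14.4. The variation between cultures is unknown.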

Other observations

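Beyond 20 kb and up to 50 kb from the 10 genes lay 12 further peaks, and none of them was near FGF10, MET or RET. The strongest, with a fold of 41.4, was 27.3 kb from FGFR1 and 0.611 kb from an end of LETM2. Near FGFR2, a peak 48.0 kb away, from 121646459 to 121646916, had a fold of 34.2, which is higher than any peak within 20 kb of that gene, and the gene with the nearest end was the lncRNA gene LOC107984183. The single peak in this range near SHH, 29.3 kb away, had a fold of 13.2 and SHH itself as the gene with the nearest end. At NUDT6, the neighbour of FGF2, a peak with a fold of 9.20 was 0.054 kb from an end of the gene.

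LMBR1, a gene on chromosome 7 whose introns hold a long-range limb enhancer of SHH, was looked at after the other values had been seen. It had 2 peaks over 224.2 kb. The one at its start had a fold of 36.4, and the other, from 156785813 to 156786572, was 107.0 kb from the nearest listed start of LMBR1 and 973.8 kb from the start of SHH. This inner peak had a fold of 81.1, a −log10 q of 351 and 208 fragments at the summit (95% interval by the exact Poisson method, 181 to 238), at the 98.2th percentile of all peaks and above each of the 43 peaks near the 10 genes by fold. The position of the enhancer is in none of the tables used here, so whether the peak meets it was not tested.

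Of the 73 pathway genes, 67 had a peak within 20 kb, and 86.3% of all protein-coding genes had one. Genes without such a peak were thus no more frequent in the lists than among all genes. The 6 without one, named after their values were seen, were FGF4, FGF7, FGF9, FGF23, HGF and BMP5, of which HGF is the ligand of MET and FGF7 a ligand of FGFR2 from the mesenchyme.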
